A study of Mus musculus with 3 samples.

Results

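Capillary endothelial nuclei of the mouse heart, chosen by their marker RNAs, were 2522 of the 20733 nuclei that passed a quality filter, and of 23823 deposited barcodes. Nuclei came from heart tissue taken 2 weeks after surgery, in 3 libraries with 1 library for each group. MI-DAPA hearts had a myocardial infarction (MI) and were given dapagliflozin, MI-NS hearts had an infarction and NS, and Sham-NS hearts had sham surgery and NS. Dapagliflozin inhibits the kidney glucose cotransporter SGLT2 and is used against diabetes and heart failure. The labels did not expand NS, and gave neither strain, sex, age, dose, hour of collection, heart region nor the number of mice behind a library. The tissue was labelled as heart only, so infarct, border and remote muscle could not be told apart.

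A nucleus was counted as capillary when it had at least 3 UMIs (distinct RNA molecules) summed over Flt1, Btnl9, Kdr, Ptprb, Adgrf5 and Cyyr1. It also had to lack UMIs of Npr3, Cgnl1, Sema3g, Gja5, Prox1 and Mmrn1, which mark endocardium, arteries and lymphatics, and to have fewer than 2 UMIs over the arterial genes Sox17 and Hey1. At most 1 UMI was allowed over the fibroblast, immune and mural genes Pdgfra, Dcn, Csf1r, Ptprc, Pdgfrb and Abcc9, and the cardiomyocyte RNAs Ttn, Ryr2, Myh6 and Mhrt had to be under 3% of UMIs. The rule took 661 nuclei in MI-DAPA, 618 in MI-NS and 1243 in Sham-NS. They held 481510, 549921 and 902826 UMIs, with medians of 649, 726.5 and 640 UMIs and 482, 537 and 463 genes per nucleus. With 1 library per group no difference between groups could be tested. Intervals are 95% counting intervals, and cover neither differences between mice nor between pieces of tissue.

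Capillary endothelium lines the smallest vessels. In the heart it passes fatty acids, glucose, water and oxygen to the muscle, and among its known genes are Car4 (a carbonic anhydrase on the vessel surface), Gpihbp1 and Cd36 (lipid uptake) and the transcription factors Meox2 and Tcf15, which in mice control fatty acid transport. After infarction, capillaries are lost in the scar and surviving ones can sprout, a process in which tip cells lead new branches and lay down basement membrane of type IV collagen and laminin. Capillary cells respond to VEGF through Kdr, while Flt1 also binds VEGF and acts largely as a decoy.

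Endothelial genes outside the rule were high in these nuclei. The 22 pan-endothelial genes summed to 10060 CPM (UMIs scaled to a total common to all libraries) in MI-DAPA, 9505 CPM in MI-NS and 8899 CPM in Sham-NS capillary nuclei, against 1338, 2074 and 1794 CPM in all other nuclei of those libraries. The 25 capillary genes that the rule did not use summed to 5931, 5001 and 7239 CPM, against 2938, 2654 and 3183 CPM in endocardial nuclei, and none of the 25 was at 0. Nuclei just outside the threshold, with 2 marker UMIs, had 3860, 3966 and 3297 CPM of 6 pan-endothelial genes in MI-DAPA, MI-NS and Sham-NS, and those just inside, with 3, had 4395, 4593 and 4004 CPM. The rule had no venous genes, and 7 venous markers summed to 457, 829 and 702 CPM in capillary nuclei, so venous nuclei can be among them. RNA of other cells was present too: 15 cardiomyocyte markers summed to 3562, 3057 and 4198 CPM.

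The libraries differed in ways that bear on every comparison below. Mitochondrial UMIs had a median of 3.30% in MI-DAPA, 1.82% in MI-NS and 4.21% in Sham-NS capillary nuclei, and the nuclear RNA Malat1 made up 3.35%, 6.80% and 3.36% of UMIs. The 12 fibroblast markers summed to 1583 CPM in MI-DAPA, 3941 CPM in MI-NS and 1707 CPM in Sham-NS capillary nuclei, with none of the 12 at 0. In macrophage nuclei, which do not make these RNAs in quantity, the same markers stood at 1335, 2220 and 674 CPM. Col1a1, the main fibrillar collagen gene, was at 137, 598 and 36.6 CPM in capillary nuclei. The part of these differences in the results below was not tested, but values are given for the 533, 286 and 1128 capillary nuclei without a UMI of Col1a1, Col1a2, Col3a1 or Postn where they bear on a result; this split was chosen after the data were seen. Pairs of libraries shared 13 to 20 barcodes, and 1 of those was capillary in both libraries of its pair.

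Capillary nuclei made up 12.3% of nuclei past the filter in MI-DAPA (11.4 to 13.2, Clopper-Pearson), 8.75% in MI-NS (8.10 to 9.43) and 15.0% in Sham-NS (14.2 to 15.8). The share in MI-NS was thus 0.584 of that in Sham-NS, and the share in MI-DAPA was 1.41 times that in MI-NS. Of nuclei low in cardiomyocyte RNA they were 18.1%, 10.5% and 19.9%. Endocardial nuclei, the lining of the chambers, were at 1.77%, 1.80% and 3.19%, and arterial nuclei at 0.465%, 0.679% and 1.01%. Among capillary, arterial and endocardial nuclei together, the capillary share was 84.6% in MI-DAPA (81.9 to 87.1), 77.9% in MI-NS (74.9 to 80.8) and 78.1% in Sham-NS (76.0 to 80.1).

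**Figure D1:**
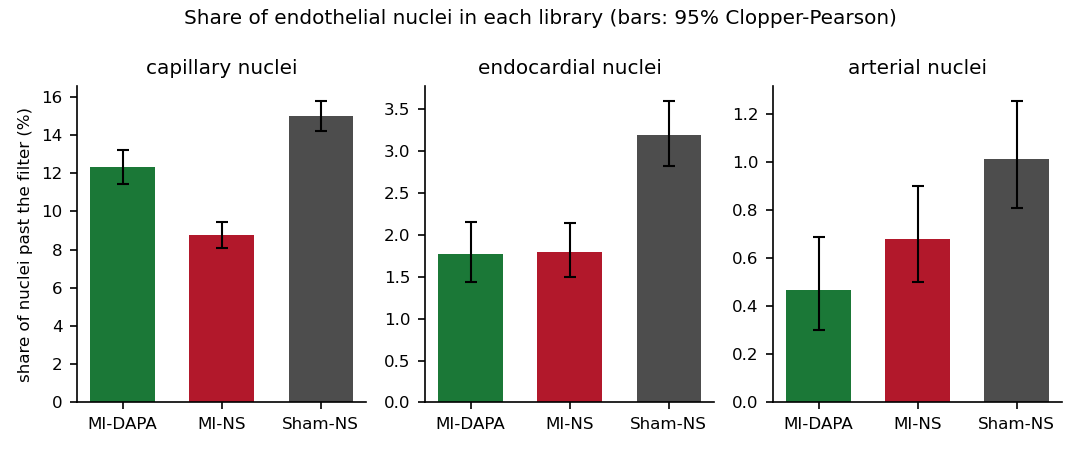
Share of capillary, endocardial and arterial nuclei (y axis, % of nuclei past the filter) in the 3 libraries (x axis), with 95% Clopper-Pearson intervals that cover counting error only. Capillary nuclei stood at 12.3% in MI-DAPA, 8.75% in MI-NS and 15.0% in Sham-NS, while endocardial nuclei stood at 1.77%, 1.80% and 3.19%.

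These shares rest on genes whose own levels differed. Flt1 was at 1074 CPM in MI-DAPA, 713 CPM in MI-NS and 2029 CPM in Sham-NS capillary nuclei, Adgrf5 at 1898, 1433 and 2436 CPM, and Kdr at 1306, 1077 and 745 CPM; as rule genes these are given as a description. When at least 2 UMIs over the pan-endothelial genes Pecam1, Cdh5, Emcn, Tek, Tie1 and Egfl7 took the place of the capillary markers, the share's log2 ratio was -0.23 in place of -0.78 for MI-NS over Sham-NS and 0.18 in place of 0.49 for MI-DAPA over MI-NS. A stricter nucleus filter gave -0.37 and 0.12. The direction held in each of the 7 settings tried, but the size did not. A share of nuclei does not tell fewer capillary nuclei from more nuclei of other kinds.

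The comparison of MI-NS with Sham-NS shows the capillary nuclei of the infarcted heart without the drug. Genes with 50 or more UMIs in the 2 libraries together were called measurable, and a ratio of 2-fold or more was counted as a difference. Of 5469 measurable genes, 316 (5.78%) were at least 2-fold higher and 163 (2.98%) at least 2-fold lower in MI-NS. TMM scaling moved the median of all genes by -0.20 on the log2 scale and gave 187 higher and 301 lower, so the balance of higher and lower genes depends on the scaling. The text below therefore sets each gene list beside the median of all measurable genes, which was 0.07, with quartiles of -0.27 and 0.43. Of these genes 3045 were higher and 2424 lower in MI-NS at any size, which is the background for each count of list members.

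**Figure D2:**
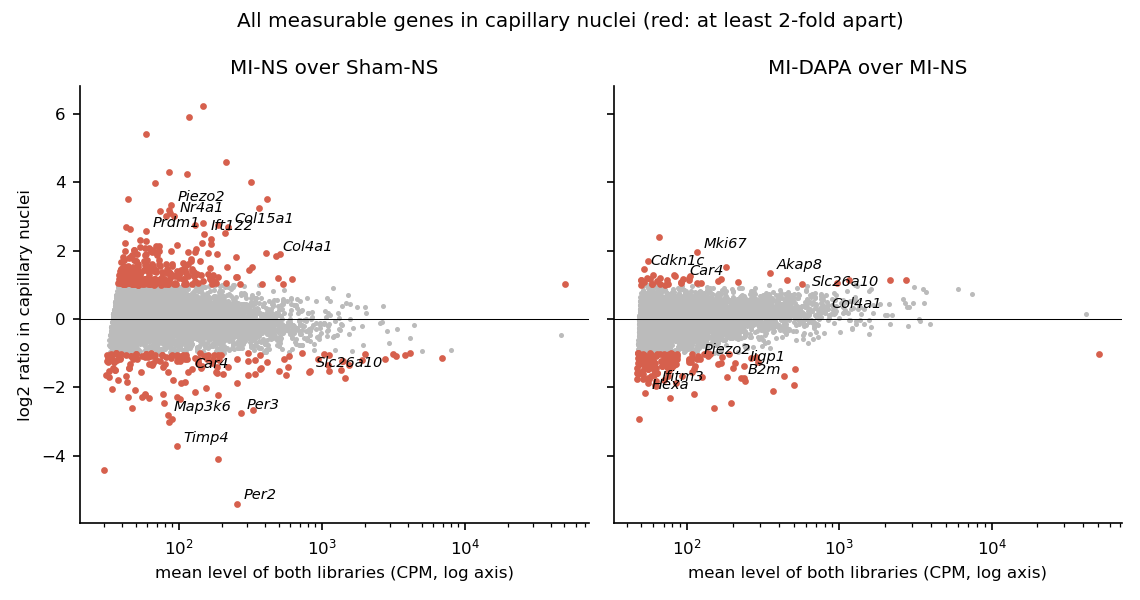
Log2 ratio in capillary nuclei (y axis) against the mean level of both libraries (x axis, CPM, log axis) for every measurable gene; red points are at least 2-fold apart. In MI-NS over Sham-NS 316 genes were at least 2-fold higher and 163 lower, and in MI-DAPA over MI-NS 40 were higher and 160 lower.

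Genes of the resting heart capillary were lower in MI-NS. Of 22 measurable capillary genes that the rule did not use, 17 were lower and 5 higher, with a median log2 ratio of -0.58, and 5 were at least 2-fold lower against 1 at least 2-fold higher. Car4 was at 131 CPM in MI-DAPA, 58.2 CPM in MI-NS and 174 CPM in Sham-NS, from 63, 32 and 157 UMIs, a log2 ratio of -1.56 (-2.18 to -1.02) for MI-NS over Sham-NS. The level in MI-NS was the lowest, and MI-DAPA stood between the others with an interval that met that of Sham-NS. Slc26a10, a member of an anion transporter family, was at 775, 429 and 1229 CPM, a log2 ratio of -1.52 (-1.73 to -1.31). Timp4, an inhibitor of matrix metalloproteinases, was at 47.8, 12.7 and 181 CPM (log2 -3.73, -5.16 to -2.75), and rested on 7 UMIs in MI-NS. The transcription factor Meox2 was at 108, 72.7 and 152 CPM (log2 -1.05).

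Not every capillary gene followed. Genes of fatty acid uptake stood close to the background: Cd36, a fatty acid receptor, was at 395 CPM in MI-DAPA, 342 CPM in MI-NS and 400 CPM in Sham-NS, and Gpihbp1, which carries lipoprotein lipase across the capillary wall, at 247, 238 and 271 CPM. Fabp4, an intracellular fatty acid carrier, was at 683, 909 and 796 CPM. Lpl, lipoprotein lipase itself, was at 181, 204 and 409 CPM, so both infarct libraries lay below Sham-NS. Over the 15 measurable genes of fatty acid handling the median was 0.09, beside 0.07 for all genes. Pcdh17, a protocadherin on the capillary list, had the opposite direction, at 332, 244 and 115 CPM (log2 1.08).

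Transport genes were lower more often than higher. Of 17 measurable transporters of water, solutes and drugs, 12 were lower and 5 higher in MI-NS, with a median of -0.34. Abcg2, an efflux pump for drugs, was at 135 CPM in MI-DAPA, 120 CPM in MI-NS and 318 CPM in Sham-NS (log2 -1.40, -1.81 to -1.01). The water channel Aqp1 was at 156, 169 and 305 CPM (log2 -0.84), and the nucleoside transporter Slc28a2 at 1016, 626 and 956 CPM (log2 -0.61). For Abcg2 and Aqp1 both infarct libraries lay below Sham-NS with no overlap of intervals, while for Slc28a2 MI-DAPA stood with Sham-NS.

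Sprouting and tip cell genes stood above their Sham-NS level in MI-NS. This held for 13 of the 14 that could be measured, by 2-fold or more for 7, and the median log2 ratio was 0.95. Mcam, an adhesion receptor of growing vessels, was at 204 CPM in MI-DAPA, 275 CPM in MI-NS and 59.8 CPM in Sham-NS (log2 2.19, 1.74 to 2.67). The netrin receptor Unc5b was at 95.5, 92.7 and 34.3 CPM (log2 1.42, 0.76 to 2.13), and Trp53i11 at 224, 182 and 75.3 CPM (log2 1.27). Igfbp3, a binding protein of insulin-like growth factors, was at 54.0, 116 and 28.8 CPM (log2 2.00). Both infarct libraries lay above Sham-NS for each of these. The list has 27 genes, and those not counted here had too few UMIs. Of 14 measurable guidance genes 8 were higher and 6 lower, with a median of 0.29. Among them Sema6d (417, 449 and 166 CPM, log2 1.43) and Plxnd1 (a semaphorin receptor, 1761, 1555 and 831 CPM, log2 0.90) had higher levels in MI-NS, and Plxna2, a semaphorin co-receptor, a lower one (380, 264 and 391 CPM, log2 -0.57).

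Basement membrane genes were mostly higher in MI-NS as well. Of the 17 that could be measured, 13 had a higher level in MI-NS, by 2-fold or more for 5. The median of 0.37 lay inside the quartiles of all genes. Col4a1 had 414 UMIs in MI-DAPA, 415 in MI-NS and 188 in Sham-NS, or 860, 755 and 208 CPM, a log2 ratio of 1.86 (1.61 to 2.11) for MI-NS over Sham-NS. Col4a2, its partner chain in type IV collagen, was at 642, 651 and 169 CPM (log2 1.94, 1.66 to 2.22). Both chains were higher in both infarct libraries than in Sham-NS. A Col4a1 UMI was found in 31.3%, 28.2% and 8.93% of capillary nuclei thinned to 500 UMIs, against 16.9%, 16.7% and 9.56% of fibroblast nuclei; unthinned, with median depths of 649, 726.5 and 640 UMIs, the capillary shares were 41.1%, 42.2% and 13%. Col15a1, a collagen beneath the basement membrane, was at 247, 382 and 58.7 CPM (log2 2.69), and Sparc, a collagen-binding protein that fibroblasts also make, at 123, 253 and 66.5 CPM (log2 1.92). Without the nuclei that held a fibroblast collagen or Postn UMI, the ratios for MI-NS over Sham-NS were 2.12 for Col4a1, 2.05 for Col4a2, 3.20 for Col15a1 and 1.76 for Sparc. Hspg2, the gene of perlecan, was at 2122, 1562 and 1210 CPM. Laminin genes did not share a direction: Lamb1 had a log2 ratio of 1.06 and Lama4 of 0.53, but Lamb2 one of -0.88 and Lama5 one of -0.56.

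Col4a1 and Col4a2 lie head to head, which is why their shared start is shown. Per the GENCODE annotation of GRCm38, Col4a1 runs on the minus strand of chromosome 8 from 11198423 to 11312826 and Col4a2 on the plus strand from 11312805 to 11449287. The window from 250 bases before to 50 after the RefSeq start of Col4a2 (RefSeq, GRCm38.p6, chr8:11312555-11312854, plus strand) is printed 5′ to 3′, and the 78 capital letters are also part of the Col4a1 window (chr8:11312777-11313076, minus strand). How the counting treated the bases that both genes hold is not given in the sources used here.
Col4a2: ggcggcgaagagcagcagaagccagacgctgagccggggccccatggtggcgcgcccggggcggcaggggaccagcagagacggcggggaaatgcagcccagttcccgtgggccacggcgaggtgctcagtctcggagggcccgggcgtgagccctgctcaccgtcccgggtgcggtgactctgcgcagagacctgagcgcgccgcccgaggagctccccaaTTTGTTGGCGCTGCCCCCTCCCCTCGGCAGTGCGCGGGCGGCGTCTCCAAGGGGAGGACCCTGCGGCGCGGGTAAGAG

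Other regulators of endothelium were split. Of 26 measurable endothelial transcription factors 15 were higher and 11 lower in MI-NS, near the share over all genes (3045 of 5469 higher). Prdm1, a transcriptional repressor, was at 156 CPM in MI-DAPA, 102 CPM in MI-NS and 16.6 CPM in Sham-NS, from 75, 56 and 15 UMIs (log2 2.58, 1.77 to 3.54), and Meox1 at 114, 104 and 26.6 CPM (log2 1.95), the reverse of its relative Meox2. Bcl6b was at 359, 356 and 152 CPM (log2 1.23), while Erg, which maintains endothelial identity, was at 185, 140 and 154 CPM. Both infarct libraries lay above Sham-NS for Prdm1, Meox1 and Bcl6b. Ift122, a part of the transport machinery of cilia, was at 428, 256 and 45.4 CPM (log2 2.48, 1.99 to 3.04). In all other nuclei of the same libraries the Ift122 ratio was 1.40 (1.15 to 1.65) and that of Prdm1 1.41 (1.01 to 1.83). Both were below the capillary values, and the intervals met for Prdm1 but not for Ift122. Those other nuclei are a mixture of differing makeup, with cardiomyocyte nuclei at 11.7% of nuclei past the filter in MI-NS and 21.8% in Sham-NS. A difference from single classes was not tested.

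Receptors of VEGF and the Notch and Tie pathways gave no common direction in MI-NS over Sham-NS. The VEGF co-receptor Nrp2 was at 822 CPM in MI-DAPA, 711 CPM in MI-NS and 353 CPM in Sham-NS (log2 1.01, 0.79 to 1.23), but Nrp1 was at 785, 553 and 635 CPM (log2 -0.20) and the ligand gene Vegfa had a log2 ratio of -0.30. Notch1 was at 457, 313 and 335 CPM, the ligand gene Jag2 at 401, 280 and 400 CPM (log2 -0.51), and Mfng, which modifies Notch, at 114, 120 and 52.1 CPM. Tie1 was at 764, 609 and 800 CPM and Tek, the angiopoietin receptor, at 241, 224 and 255 CPM. The medians were -0.14 over 9 VEGF genes, 0.15 over 12 Notch genes and 0.09 over 5 angiopoietin-Tie and PDGF genes. The VEGF list leaves out the VEGF receptor genes Flt1 and Kdr, which are rule genes and whose levels are given above. Under TMM scaling the Notch and angiopoietin-Tie medians were -0.05 and -0.11, so their sign depended on the scaling. In BMP signalling the co-receptor Eng was at 737, 495 and 827 CPM (log2 -0.74) and the inhibitor Smad7 at 191, 127 and 244 CPM (log2 -0.93), with a median of -0.05 over 16 genes.

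Genes of vascular tone and flow sensing were mixed around the background, with a median of 0.06 over 20. Piezo2, a stretch-gated ion channel, was at 72.7 CPM in MI-DAPA, 162 CPM in MI-NS and 15.5 CPM in Sham-NS, from 35, 89 and 14 UMIs (log2 3.34, 2.56 to 4.31). Its ratio was 4.12 (3.79 to 4.50) in all other nuclei and 3.87 in fibroblast nuclei, so it was not larger in capillary nuclei. The flow-responsive factor Klf4 was at 426, 273 and 539 CPM (log2 -0.98, -1.26 to -0.72), and the calcium channel Trpv4 at 68.5, 41.8 and 112 CPM (log2 -1.40). Nos3, the endothelial nitric oxide synthase, had a log2 ratio of 0.09.

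Activation genes were modestly higher in MI-NS, and antigen presentation genes less so. Of 11 measurable activation genes 9 were higher with a median of 0.59, led by the TNF receptor Tnfrsf1a at 54.0 CPM in MI-DAPA, 74.6 CPM in MI-NS and 26.6 CPM in Sham-NS (log2 1.48, 0.73 to 2.28). Icam1, which binds leukocytes, was at 150, 90.9 and 58.7 CPM. Vwf, a clotting factor of larger vessels, was at 91.4, 96.4 and 204 CPM (log2 -1.07). Of 15 genes of antigen presentation 13 were higher, with a median of 0.27, inside the quartiles of all genes (-0.27 and 0.43). H2-Q7 was at 251, 262 and 112 CPM (log2 1.22), and B2m, the light chain of class I molecules, at 104, 349 and 150 CPM (log2 1.22). H2-Q6 and H2-Q7 are near-identical copies between which reads may be split. Of 28 interferon response genes 17 were lower and 11 higher (median -0.17), among the lower ones Gbp3 at 162, 155 and 294 CPM and Stat2 with a log2 ratio of -0.54.

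All 6 measurable genes of mesenchymal transition were higher in MI-NS, with a median of 1.00. Cald1, an actin-binding protein, was at 598 CPM in MI-DAPA, 855 CPM in MI-NS and 379 CPM in Sham-NS (log2 1.17, 0.97 to 1.38), Vim, an intermediate filament of mesenchymal and endothelial cells, at 195, 247 and 138 CPM (log2 0.84), and Zeb1 at 334, 387 and 253 CPM. Fn1, with the list's largest ratio (log2 2.74), was at 58.2, 327 and 48.7 CPM, but at 105, 564 and 33.5 CPM in all other nuclei. The muscle genes Acta2 and Tagln had 1, 23 and 7 and 4, 29 and 4 UMIs and were not measurable. The fibroblast markers were also highest in MI-NS, as given above, and without nuclei holding a fibroblast collagen or Postn UMI the median of the list was 0.93.

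**Figure D3:**
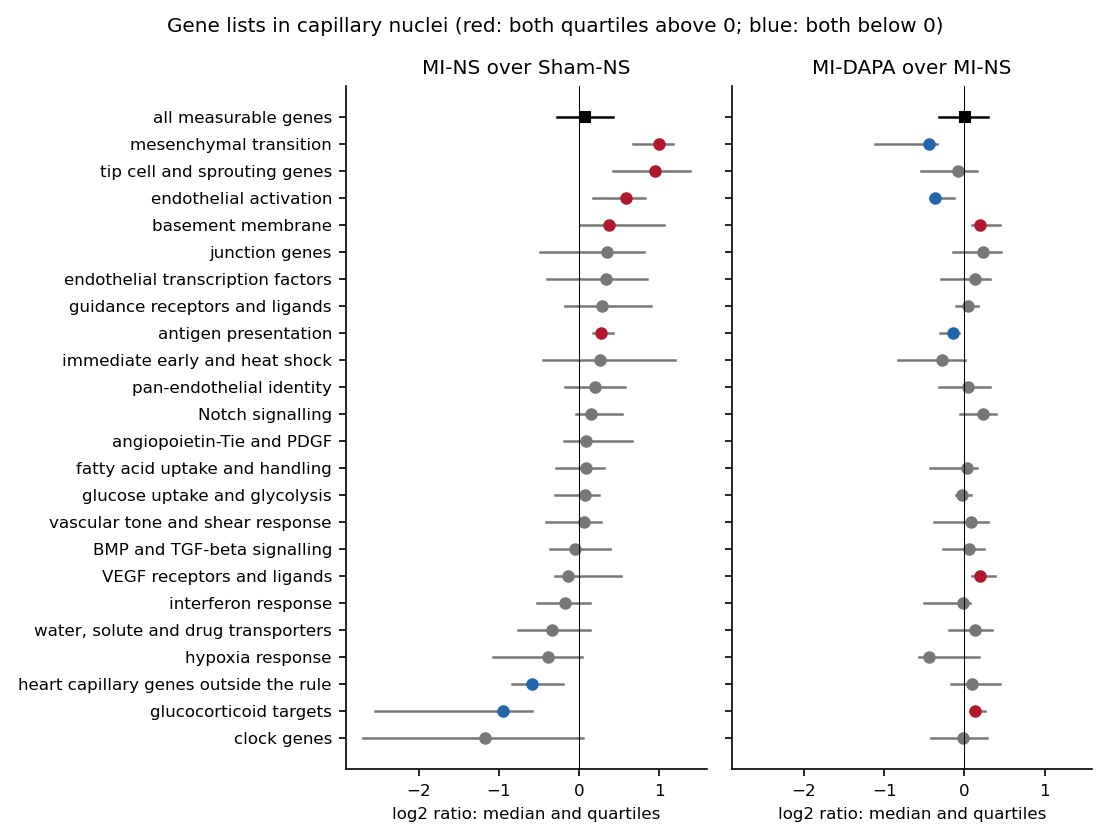
Median and quartiles of the log2 ratio (x axis) of the gene lists shown (rows), with at least 5 measurable genes each, in capillary nuclei, with all measurable genes in the top row. In MI-NS over Sham-NS both quartiles lay above 0 for the sprouting, basement membrane, activation, antigen presentation and mesenchymal lists and below 0 for the heart capillary and glucocorticoid lists; in MI-DAPA over MI-NS they did so for 3 lists on each side.

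Several clock genes were far lower in MI-NS. Per2, a repressor arm of the circadian clock, had 9 UMIs in MI-DAPA, 6 in MI-NS and 450 in Sham-NS, or 18.7, 10.9 and 498 CPM, a log2 ratio of -5.40 (-6.97 to -4.38) for MI-NS over Sham-NS. Per3 was at 56.1, 69.1 and 473 CPM (log2 -2.76), Per1 at 70.6, 47.3 and 210 CPM (log2 -2.13) and Nr1d2, a nuclear receptor of the clock, at 164, 167 and 510 CPM (log2 -1.60). Arntl, the activator arm whose RNA cycles opposite to that of the Per genes, had 15, 44 and 3 UMIs (log2 4.38, 2.95 to 6.92), below the limit for a measurable gene. Per3 was lower outside the capillaries too: in cardiomyocyte nuclei the ratio of Per3 was -2.77 and in all other nuclei -2.73. Of 12 measurable clock genes 8 were lower, by 2-fold or more for 6, and the median was -1.17. The labels give no hour of collection, so time of day and group cannot be told apart.

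Genes that glucocorticoids induce were also lower, 9 of 11 with a median of -0.95. Tsc22d3, known as GILZ, was at 27.0 CPM in MI-DAPA, 14.5 CPM in MI-NS and 74.2 CPM in Sham-NS (log2 -2.27), and Map3k6 at 37.4, 20.0 and 147 CPM (log2 -2.82). Per1 and Timp4 belong to this list as well as to the lists above. For this list too, the hour of collection is not given, so time of day and group cannot be told apart. Dusp1, a phosphatase of MAP kinases, was at 212, 245 and 158 CPM (log2 0.63), and Fkbp5 at 22.8, 41.8 and 41.0 CPM. Of 12 hypoxia response genes 9 were lower (median -0.38), among them Ankrd37 at 39.5, 18.2 and 79.7 CPM, while Hif1a was at 102, 149 and 70.9 CPM (log2 1.07). The list that joins immediate early with heat shock genes had 13 measurable members, of which 9 stood above Sham-NS in MI-NS and 4 below. By 2-fold or more, 4 stood above and 1 below. The median of 0.26 lay inside the quartiles of all genes. Egr1 was at 133, 225 and 33.2 CPM (log2 2.74) and Nr4a1 at 62.3, 164 and 19.9 CPM (log2 3.01). Fosl2 had a log2 ratio of 2.03 and Junb one of 1.19. Jun went the other way, at 228, 129 and 177 CPM (log2 -0.45).

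Promoter windows of 3 clock genes are shown because the motifs in them are known from clock biology. RefSeq windows were found for 17 of the 20 clock genes. Per2 had no window and so was not searched. Both strands were searched for the E-box CACGTG, the D-box TTATGTAA and the ROR element TAGGTCA, none of which contains another. Some genes had several windows, 22 in all. The E-box was in 6 of the 22 windows (27.3%), of 5 genes that include Per1 and Tef, against 7.15% of all 32851 windows. The D-box was in that of Per3 alone, at 2 places, or 4.55% of windows against 0.938%, and the ROR element in 1 window each of Arntl and Nfil3, or 9.09% against 2.61%. A match is a description of the letters and not a bound site. Windows run 5′ to 3′ in the gene's direction on GRCm38.p6, Per1 at chr11:69098699-69098998 (plus strand), Per3 at chr4:151044616-151044915 (minus strand) and Arntl at chr7:113207261-113207560 (plus strand). Capitals mark the motif.
Per1: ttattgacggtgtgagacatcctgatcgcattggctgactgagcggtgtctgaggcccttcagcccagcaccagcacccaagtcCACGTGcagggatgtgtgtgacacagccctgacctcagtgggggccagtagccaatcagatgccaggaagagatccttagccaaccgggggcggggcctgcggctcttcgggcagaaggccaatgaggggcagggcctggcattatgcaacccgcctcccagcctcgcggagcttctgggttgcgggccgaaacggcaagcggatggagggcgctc
Per3: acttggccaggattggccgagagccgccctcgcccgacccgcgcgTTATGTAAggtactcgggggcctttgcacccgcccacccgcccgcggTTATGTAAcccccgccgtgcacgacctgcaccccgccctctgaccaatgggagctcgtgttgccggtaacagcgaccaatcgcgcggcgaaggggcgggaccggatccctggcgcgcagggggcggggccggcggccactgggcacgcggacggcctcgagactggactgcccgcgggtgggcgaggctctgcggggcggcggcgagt
Arntl: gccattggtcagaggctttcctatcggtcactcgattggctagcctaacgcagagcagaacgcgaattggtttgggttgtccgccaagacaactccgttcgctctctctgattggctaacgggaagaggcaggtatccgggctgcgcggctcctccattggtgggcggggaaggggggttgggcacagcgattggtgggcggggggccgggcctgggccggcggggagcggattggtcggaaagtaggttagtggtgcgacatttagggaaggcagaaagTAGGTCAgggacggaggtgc

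The comparison of MI-DAPA with MI-NS sets capillary nuclei of infarcted hearts with the drug beside those without it. It held fewer differences: of 4370 measurable genes 40 (0.915%) were at least 2-fold higher and 160 (3.66%) at least 2-fold lower in MI-DAPA. At any size 2200 were higher and 2170 lower, with a median of 0.00 and quartiles of -0.31 and 0.29. TMM scaling moved the median by 0.12 and gave 74 higher and 118 lower by 2-fold or more. Without the nuclei that held a fibroblast collagen or Postn UMI, 40 were higher and 32 lower among 2467 measurable genes. Only 14 of these 40 were also among the 40 higher genes as reported, and 14 of the 32 among the 160 lower ones. Genes no longer measurable could not be among those shared.

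Resting capillary genes were mixed in MI-DAPA over MI-NS, with 14 of 21 higher and a median of 0.10 beside 0.00 for all genes. Car4 was at 131 CPM in MI-DAPA and 58.2 CPM in MI-NS (log2 1.16, 0.53 to 1.83), against a ratio of -0.54 (-1.03 to -0.06) in all other nuclei. Slc26a10 was at 775 and 429 CPM (log2 0.85, 0.61 to 1.09), against -0.17 (-0.36 to 0.01) in all other nuclei. For both the intervals of capillary and all other nuclei did not meet, but those other nuclei are a mixture whose makeup differs between libraries: within single classes Slc26a10 had ratios of 0.90 in endocardial, 1.98 in fibroblast, 0.72 in macrophage and 0.25 in cardiomyocyte nuclei, and arterial nuclei lay in that range. Car4 had a ratio of 1.19 in endocardial nuclei, from 5 and 4 UMIs. In MI-DAPA both stood below their Sham-NS levels of 174 and 1229 CPM. Timp4 was at 47.8 and 12.7 CPM from 23 and 7 UMIs, too few to be measurable in this comparison. Slc28a2 was at 1016 and 626 CPM (log2 0.70). Other members did not follow: Rgcc, a regulator of the cell cycle, was at 35.3 and 76.4 CPM (log2 -1.09), Aqp1 at 156 and 169 CPM, Lpl at 181 and 204 CPM, and Gpihbp1 had a log2 ratio of 0.05.

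Sprouting and basement membrane genes that set MI-NS apart from Sham-NS were near the MI-NS level in MI-DAPA. Col4a1 was at 860 CPM in MI-DAPA and 755 CPM in MI-NS (log2 0.19, -0.01 to 0.39), Col4a2 at 642 and 651 CPM (log2 -0.02) and Unc5b at 95.5 and 92.7 CPM (log2 0.04). The counting intervals of these ratios hold 0 and exclude a 2-fold difference, which does not cover differences between mice. Of 17 basement membrane genes 13 were higher, with a median of 0.19, among them Sparcl1 at 503 and 311 CPM (log2 0.69) and Lama4 at 692 and 507 CPM (log2 0.45). Against them stood Sparc at 123 and 253 CPM (log2 -1.04, -1.51 to -0.60) and Col15a1 at 247 and 382 CPM (log2 -0.63). Without nuclei holding a fibroblast collagen or Postn UMI the list's median was 0.03. Of 14 sprouting genes 5 were higher and 9 lower (median -0.08), with Igfbp3 at 54.0 and 116 CPM (log2 -1.09) and Mcam at 204 and 275 CPM (log2 -0.43).

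Genes of the VEGF list, which leaves out the rule genes Flt1 and Kdr, were slightly higher in MI-DAPA, 6 of 8 with a median of 0.19. Nrp1 was at 785 CPM in MI-DAPA and 553 CPM in MI-NS (log2 0.51, 0.28 to 0.73), and Plcg1, a phospholipase downstream of Kdr, at 476 and 369 CPM (log2 0.37). Notch1 was at 457 and 313 CPM (log2 0.55) and Jag2 at 401 and 280 CPM (log2 0.52), and the adherens junction gene Ctnnd1 at 183 and 109 CPM (log2 0.74). Without nuclei holding a fibroblast collagen or Postn UMI, the medians were 0.02 for the VEGF list, and -0.10 for Notch and -0.02 for junction genes, which as reported were each 0.23.

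Activation and mesenchymal genes were lower in MI-DAPA, and antigen presentation genes slightly so, with a median inside the quartiles of all genes. B2m had 50 UMIs in MI-DAPA and 192 in MI-NS, or 104 and 349 CPM (log2 -1.74, -2.23 to -1.29). It was found in 6.66% of MI-DAPA and 23% of MI-NS capillary nuclei, unthinned and at unequal median depths of 649 and 726.5 UMIs. Its ratio was -2.39 (-2.58 to -2.21) in all other nuclei and -2.01 in cardiomyocyte nuclei, so B2m was lower across the library. The peptide loading gene Tapbp was at 70.6 and 145 CPM (log2 -1.03), but the class I chain genes H2-K1 and H2-D1 had ratios of -0.15 and 0.06, and the list's median was -0.14, with 11 of 13 lower. The 25 measurable interferon response genes were near the background, 12 higher and 13 lower with a median of -0.01. Among them Iigp1 was at 131 and 338 CPM (log2 -1.36, and -1.42 in all other nuclei) and Ifitm3 at 24.9 and 98.2 CPM (log2 -1.93), while Gbp9 was at 411 and 300 CPM (log2 0.45). Of 10 activation genes 8 were lower (median -0.37), with Nfkb1 at 137 and 209 CPM (log2 -0.60) and Icam1, the other way, at 150 and 90.9 CPM (log2 0.71). All 6 mesenchymal genes were lower, with a median of -0.44, as were the 9 measurable fibroblast markers, with a median of -1.47; the part of fibroblast RNA in this was not tested.

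Among eligible genes, which in the library with the higher level stood at or above all other nuclei, the lowest ratios in MI-DAPA over MI-NS were those of Hexa, a lysosomal enzyme, at 18.7 CPM in MI-DAPA and 87.3 CPM in MI-NS (log2 -2.16, -3.44 to -1.18), Ifitm3, Fxyd5 at 31.2 and 109 CPM (log2 -1.77), B2m, Selenow at 24.9 and 85.5 CPM, Prcp at 29.1 and 92.7 CPM, Rhoa at 22.8 and 72.7 CPM, and Vamp5 at 31.2 and 96.4 CPM. Each rested on 9 to 50 UMIs in MI-DAPA. The Rhoa ratio was -1.62 in capillary and -1.73 in all other nuclei, and that of Prcp -1.64 and -1.65. The Hexa ratio in all other nuclei was -0.93 (-1.15 to -0.72), above the capillary interval. Akap8, a nuclear anchoring protein, was higher at 505 and 200 CPM (log2 1.33), with ratios of 0.97 to 2.61 in the other classes. Cdkn1c, an inhibitor of the cell cycle, was at 76.8 and 27.3 CPM (log2 1.47, 0.59 to 2.47), against 127 CPM in Sham-NS and a ratio of -0.20 in all other nuclei.

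**Figure D4:**
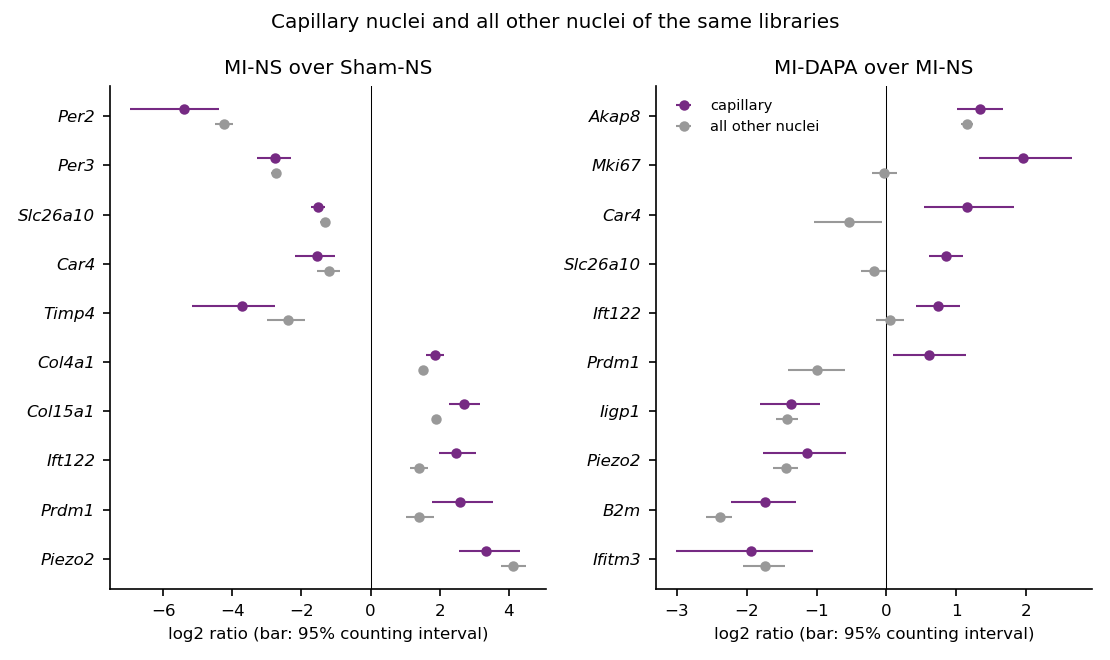
Log2 ratio (x axis, with 95% counting intervals) of 10 genes in each comparison (rows), in capillary nuclei (purple, upper point) and in all other nuclei of the same libraries (grey, lower point). Clock genes and B2m differed in both in the same direction, while in MI-DAPA over MI-NS Mki67, Car4 and Slc26a10 had ratios of 1.95, 1.16 and 0.85 in capillary nuclei and of -0.03, -0.54 and -0.17 in all other nuclei. All other nuclei are a mixture whose makeup differs between libraries. In endocardial nuclei these genes were also higher in MI-DAPA, from few UMIs for Car4. For Mki67 the endocardial UMIs lay in 3 nuclei of MI-DAPA and 1 of MI-NS. Slc26a10 was higher in fibroblast and macrophage nuclei too. The capillary interval of Mki67 treats UMIs as independent and is too narrow, because most of its UMIs lay in few nuclei.

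A small number of nuclei chosen as capillary carried cell cycle RNA in the infarct libraries. At least 3 of 26 cell cycle genes were seen in 16 of 661 nuclei in MI-DAPA (2.42%, 1.39 to 3.90), in 12 of 618 in MI-NS (1.94%, 1.01 to 3.37) and in 2 of 1243 in Sham-NS (0.161%, 0.0195 to 0.580). After thinning to 500 UMIs the numbers were 13, 9 and 2. The intervals of both infarct libraries overlapped each other and lay above that of Sham-NS. Fibroblast nuclei, as a level for free RNA, gave 0, 1 and 1 after thinning. Other classes held such nuclei too: after thinning, macrophage nuclei gave 4, 20 and 4, or 2.31%, 4.77% and 1.02%, and endocardial nuclei 3, 0 and 1. Unthinned cardiomyocyte nuclei gave 1.18%, 1.82% and 0.443%. The 16 nuclei of MI-DAPA held 265 of its 354 cell cycle UMIs. Mki67, which marks cycling nuclei, had the highest ratio of MI-DAPA over MI-NS among eligible genes, at 185 and 47.3 CPM (log2 1.95, 1.32 to 2.66), against 12.2 CPM in Sham-NS, from 89, 26 and 11 UMIs in 22, 11 and 6 nuclei. That interval treats UMIs as independent and is too narrow, because the UMIs were clumped. The 16 cycling nuclei of MI-DAPA held 72 of its 89 Mki67 UMIs, and the 12 of MI-NS held 22 of 26. By nucleus, an Mki67 UMI was found in 3.33% of MI-DAPA (2.10 to 4.996) and 1.78% of MI-NS capillary nuclei (0.892 to 3.16). These 2 intervals overlapped. Over 12 other settings the Mki67 ratio ran between 1.06, in nuclei without UMIs of other cell markers, and 2.40, under the stricter nucleus filter. Its ratio in all other nuclei was -0.03 (-0.21 to 0.14). In endocardial nuclei Mki67 had 25 UMIs in MI-DAPA, all in 3 of 95 nuclei, and 1 UMI in 1 of 127 nuclei in MI-NS. By nucleus these endocardial shares were 3.16% (0.656 to 8.95) and 0.787% (0.0199 to 4.31), and their intervals overlapped. In each library the cycling nuclei were deeper, with medians of 812 UMIs in MI-DAPA, 1490.5 in MI-NS and 1244 in the 2 nuclei of Sham-NS. All capillary nuclei had medians of 649, 726.5 and 640 UMIs, and no doublet caller was run. The cycling nuclei had a median of 3 rule marker UMIs in MI-NS and 4 in MI-DAPA, against 4.5 and 5 in all capillary nuclei. Mki67 stood at 310, 78.1 and 8.85 CPM in MI-DAPA, MI-NS and Sham-NS nuclei with 3 or 4 marker UMIs. With 5 or more it stood at 80.2, 20.4 and 14.2 CPM, from 21, 6 and 8 UMIs. The capillary identity of the cycling nuclei is thus less certain than that of the rest.

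The gene of the drug's target was not detected. Slc5a2, the gene of SGLT2, had 0 UMIs in MI-DAPA, MI-NS and Sham-NS capillary nuclei, and Slc5a1, the gene of the related cotransporter SGLT1, had 0, 0 and 1. The insulin receptor Insr was at 168, 164 and 120 CPM, and glycolysis genes had a median of -0.03 over 9 in MI-DAPA over MI-NS and of 0.08 over 13 in MI-NS over Sham-NS.

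**Figure D5:**
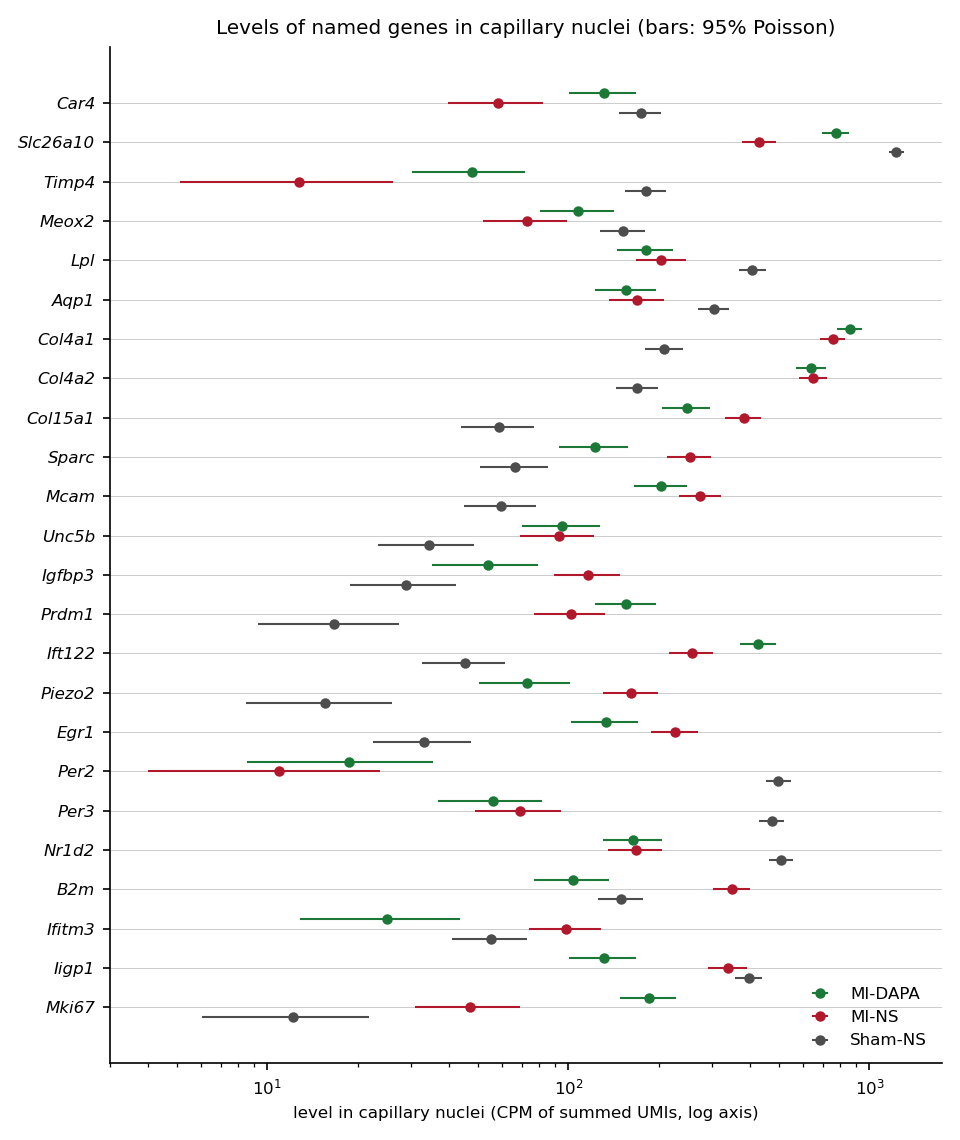
Level of 24 named genes in capillary nuclei (x axis, CPM of summed UMIs, log axis, with 95% Poisson intervals) in MI-DAPA, MI-NS and Sham-NS (colours). Col4a1 and Col4a2 stood at 860 and 642 CPM in MI-DAPA, 755 and 651 CPM in MI-NS, and 208 and 169 CPM in Sham-NS, while Car4 was at 131, 58.2 and 174 CPM.

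Set against Sham-NS directly, MI-DAPA had 120 of 5051 measurable genes (2.38%) at least 2-fold higher and 129 (2.55%) lower, or 87 and 150 under TMM scaling. This comparison shares a library with each of the others and is no independent check of them. At any size 2706 genes were higher and 2345 lower, with a median of 0.04. The 22 measurable capillary genes outside the rule had a median of -0.35 with 18 lower, tip cell and sprouting genes 0.73 with 12 of 13 higher, and basement membrane genes 0.64 with 15 of 17 higher. Interferon response genes had a median of -0.29 with 22 of 26 lower, clock genes -1.56 with 9 of 11 lower and glucocorticoid targets -1.42 with 9 of 10 lower.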

How the data were processed

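The authors deposited UMI counts per gene and barcode for 3 libraries of mouse heart nuclei, made with Cell Ranger 6.0.1 per the file headers. The mm10 build and Seurat are named in the submitters' processing notes, without Seurat's role. Whether intronic reads were counted is not given in the sources used here, and every deposited barcode had at least 500 UMIs. Nuclei were kept with at least 300 genes and at most 10% mitochondrial UMIs.

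Counts were summed over the capillary nuclei of each library and scaled to CPM with Python 3.11.15, pandas 2.3.3 and scipy 1.17.1. Log2 ratios used 0.5 added UMIs. Intervals are exact at 95% (Poisson for levels, Clopper-Pearson for shares, and for ratios a binomial conditional on the summed UMIs) and cover counting error only. The ratio intervals treat UMIs as independent, so they are too narrow for a gene whose UMIs are clumped in few nuclei. Genes needed 50 UMIs over both libraries and a 2-fold ratio to be counted. With 1 library per group no test between groups was possible. TMM factors came from edgeR 4.0.16. No doublet caller was run.

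Members and gene lists were chosen with earlier results of these data known. In each comparison the 8 highest and 8 lowest eligible genes, and up to 4 eligible genes of each list, could be named. Cd36, Gpihbp1, Hspg2, Lama5, Lamb1, Lamb2, Fn1, Col1a1, Acta2, Tagln, H2-K1, H2-D1, Nos3, Stat2 and Vegfa fall outside that rule and were chosen after their values were seen. Coordinates are from GENCODE on GRCm38, and promoter windows from RefSeq. A result on 1 gene named by the rule, and the list that holds it, is not reported here.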

Additional observations from a re-analysis of the deposited data

Results flagged for a closer look

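In 4 of the named genes the ratio of MI-DAPA over MI-NS was at least 2-fold in opposite directions in endocardial and capillary nuclei. Only 10 UMIs over both libraries were asked for in endocardial nuclei, against 50 in capillary nuclei. The endocardial values come from 95 nuclei in MI-DAPA and 127 in MI-NS. The difference between the classes was not tested. Hexa had a log2 ratio of 1.08 in endocardial nuclei and of -2.16 in capillary nuclei. Eepd1 had one of -3.96 in endocardial nuclei, where it had no UMI in MI-DAPA so that the value depends on the added 0.5 UMIs, and of 1.24 in capillary nuclei. Emcn, an endothelial surface sialomucin, had one of 1.15 in endocardial and -1.09 in capillary nuclei, and Ptgs1, a cyclooxygenase, of 1.35 and -1.19.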

How the results depend on the processing

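The share of capillary nuclei kept its direction in the 7 settings tried. For MI-NS over Sham-NS the log2 ratio was -0.37 with at least 500 genes and at most 5% mitochondrial UMIs, -1.05 with at least 5 marker UMIs, -0.23 with pan-endothelial genes as markers and -1.10 after thinning. For MI-DAPA over MI-NS it was 0.12 with the stricter filter, 0.67 without UMIs of other cells, 0.18 with pan-endothelial genes and 0.68 after thinning. For MI-DAPA over Sham-NS it was -0.48 with 5 marker UMIs, -0.045 with pan-endothelial genes and -0.42 after thinning. Genes at least 2-fold higher in MI-NS over Sham-NS numbered 198 under the stricter filter, 184 with 5 marker UMIs, 203 without nuclei holding a fibroblast collagen or Postn UMI, 186 after thinning, 187 with TMM and 188 with median-of-ratios factors, 38 at a minimum of 200 UMIs and 3643 with no minimum; lower genes numbered 301 with either factor, 67 at 200 UMIs and 1168 with no minimum. In MI-DAPA over MI-NS higher genes numbered 74 with TMM, 76 with median-of-ratios factors, 8 at 200 UMIs and 1666 with no minimum, and lower genes 86 under the stricter filter, 73 with 5 marker UMIs, 95 without UMIs of other cells, 32 without the collagen nuclei, 60 after thinning, 15 at 200 UMIs and 3418 with no minimum. In MI-DAPA over Sham-NS higher genes numbered 19 at 200 UMIs and 2306 with no minimum, and lower genes 83 under the stricter filter, 30 at 200 UMIs and 1473 with no minimum. Thinning, stricter rules and higher minimums leave fewer genes or UMIs; otherwise the cause was not tested. Of 60 named genes at least 2-fold apart in MI-NS over Sham-NS 48 to 59 remained so in each setting, and of 28 in MI-DAPA over MI-NS 18 to 28, with 0 reversed. In MI-NS over Sham-NS, TMM factors turned the small medians of pan-endothelial, fatty acid, glycolysis and vascular tone genes to 0 or below. No paired analysis was possible because each group had 1 library. Depth limits genes under 50 UMIs, and no setting covers differences between mice.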
